A study of Mus musculus with 6 samples.

Results

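The immunity-related GTPases (IRG proteins) are a family of interferon-inducible enzymes, and 6 of its mouse genes are described here: Irgm1, Irgm2, Igtp, Iigp1, Tgtp1 and Tgtp2. They were picked by gene symbol, with earlier results of these data known, and make up 6 of the 55335 genes in the deposited count table. The libraries were made from bone marrow-derived macrophages, primary mouse cells grown with the cytokine M-CSF at 20 ng/mL. All 6 libraries came from macrophages that received, on day 5, medium in which damaged pancreatic acinar cells, which make the digestive enzymes, had been kept (PAC-CM). The control group was given PAC-CM alone (3 libraries), and the other group received PAC-CM with kinsenoside, a plant glycoside, at 400 µM (3 libraries). Macrophages without PAC-CM and macrophages with kinsenoside alone were not analysed here, so the values show only the difference that came with kinsenoside. The strain, genotype, sex and age of the mice are not given in the sources used here. Whether a replicate was its own culture or mouse is not stated either, and the p-values therefore refer to the spread of these libraries, which may be technical.

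In mouse cells the family is a main cell-autonomous defence against parasites and bacteria that live inside a vacuole, such as Toxoplasma and Chlamydia. Effector proteins of the family bind GTP, assemble on the membrane of the pathogen's vacuole and break it, while regulator proteins sit on the cell's own membranes and hold the effectors inactive there. Transcription of the family is driven by interferon-γ, through its receptor, JAK kinases and the factor IRF1, and by type I interferons through their own receptor.

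The family falls into 2 types by a single residue of the GTP-binding loop, and the coding sequence of that loop is printed to show the difference on which the grouping rests. The stretches were read from the GENCODE M21 transcripts of the build GRCm38, and capitals mark the codon for methionine in the regulators (GMS type) or for lysine in the effectors (GKS type).
Irgm1, Irgm2 and Igtp: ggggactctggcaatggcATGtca
Tgtp1 and Tgtp2: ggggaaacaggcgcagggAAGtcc
The marked codon is number 89 in Irgm1 and Irgm2, 97 in Igtp and 69 in Tgtp1 and Tgtp2. The 8 codons shown were identical in the 3 regulators, although their whole coding sequences shared only 69.4% to 74.6% of aligned bases. Tgtp1 and Tgtp2 differed at 4 of 1245 coding bases (99.68% identity). In the annotated transcripts, 71.7% of the 150-base windows of Tgtp2 also occurred in Tgtp1, so the division of reads between both rows is uncertain and they are also given as a sum. For Igtp the share of windows found in another gene was 0.854%, and for Irgm1, Irgm2 and Iigp1 it was 0.

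Of the 6 members, 5 (all but Iigp1) had a promoter in the RefSeq table for GRCm38.p6, and these 5 genes lie on chromosome 11. The 60-base windows below are shown because 4 of the members carry the same arrangement of a pair of interferon response motifs. Capitals mark matches to TTCNNNGAA, the gamma-activated site, and to GAAANNGAAA, the core of the interferon-stimulated response element, in that order.
Irgm2, chr11:58214882-58214941, plus strand: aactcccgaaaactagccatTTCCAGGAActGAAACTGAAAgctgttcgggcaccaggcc
Igtp, chr11:58199491-58199550, plus strand: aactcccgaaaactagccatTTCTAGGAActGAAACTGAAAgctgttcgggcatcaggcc
Tgtp1, chr11:48992295-48992354, minus strand: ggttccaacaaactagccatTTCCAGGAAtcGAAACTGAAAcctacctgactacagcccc
Tgtp2, chr11:49064254-49064313, minus strand: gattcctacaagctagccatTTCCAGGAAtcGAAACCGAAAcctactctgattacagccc
The first motif began 75 bases before the RefSeq transcription start in Irgm2, 45 in Igtp, 88 in Tgtp1 and 81 in Tgtp2. The second motif followed after 2 bases in each. The Irgm1 promoter held 2 overlapping matches to GAAANNGAAA and no match to TTCNNNGAA. Among 32851 RefSeq promoters, searched on both strands over 250 bases before the start, 7.02% held TTCNNNGAA and 2.98% held GAAANNGAAA. The joint pattern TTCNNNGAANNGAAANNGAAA occurred in 5 promoters (0.0152%), those of the 4 members shown and of the family row Gm12185. The joint pattern was searched for after these promoters had been read, and the flanking bases are also alike between the copies. A match describes the letters and is not a measured binding site.

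The members lie in clusters. On GRCm38 (GENCODE M21) Irgm1 (ENSMUSG00000046879, minus strand) covers chr11:48861968-48871683, Tgtp1 (ENSMUSG00000078922, minus) chr11:48985327-48994172 and Tgtp2 (ENSMUSG00000078921, minus) chr11:49057194-49064206. Igtp (ENSMUSG00000078853, plus) covers chr11:58199556-58207591 and Irgm2 (ENSMUSG00000069874, plus) chr11:58199618-58222782. The annotated Irgm2 model starts inside Igtp and shares 162 exon bases with it, and Tgtp1 shares 223 exon bases with Gm12185. Iigp1 (ENSMUSG00000054072, plus) covers chr18:60376027-60392634. Reads of the shared bases cannot be assigned from these counts. The promoter windows printed above for Irgm2 and Tgtp1 lie inside these GENCODE spans, so their RefSeq starts differ from the outermost annotated ones.

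Library totals lay between 41125059 and 47461702 counts, at which a count of 3, the limit taken for a gene at 0, equals 0.0632 to 0.0729 CPM (counts per 1000000 counts of the library). All 10 macrophage markers were detected, at a summed 20383 to 22303 CPM in PAC-CM and 22061 to 24955 CPM in the kinsenoside group, and 1 of them, Mrc1, was called higher with kinsenoside (log2 fold change 0.66, edgeR adjusted p = 0.0316). This call was lost in 7 of 15 alternatives, which were limma-voom, the replicate block, non-robust estimates and leaving out any PAC-CM library or kinsenoside replicate 3, at adjusted p-values up to 0.127. Its part in the results was not tested. Markers of T and NK cells summed to between 6.16 and 15.1 CPM in the 6 libraries, nearly all of it Cd4, with Cd3d, Ncr1 and Prf1 at 0 in all 6 libraries. The 8 acinar markers summed to 6.39 to 6.97 CPM in PAC-CM and 4.98 to 7.44 CPM in the kinsenoside group. Endothelial markers summed to more, 103 to 132 CPM in PAC-CM and 99.8 to 168 CPM with kinsenoside, mostly Kdr and Vwf. Neutrophil markers summed to 31.1 to 40.0 and 33.4 to 42.9 CPM, nearly all of it S100a8. The B cell, dendritic cell, duct and fibroblast lists each summed to at most 8.93 CPM in any library. Kinsenoside replicate 1 stood apart from the other 5 libraries on the second principal component (23.6% of the variance), at -39.3 against -6.13 to 19.7. The log2 fold changes of single genes without it are given where it turned them or moved them by over 1.5 times.

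All 6 members were well expressed in both groups, and none passed the test for a difference with kinsenoside. Relative to PAC-CM, the mean level in the kinsenoside group differed by 2.39% for Irgm1, -5.19% for Irgm2 and -3.92% for Igtp among the regulators. For the effectors it differed by -10.5% for Iigp1, -11.9% for Tgtp1 and -12.3% for Tgtp2. In the edgeR quasi-likelihood test, adjusted by Benjamini-Hochberg over the 13901 genes tested, 0 of the 6 members had an adjusted p under 0.05, against 0.511% of all genes in either direction (71 genes) and 0.302% lower with kinsenoside. DESeq2 and limma-voom also called 0 members, where they called 441 and 39 genes over the whole table. At an unadjusted p under 0.05 each of the 3 tools had 0 members, where edgeR had 14.9% of all tested genes. The log2 fold changes, kinsenoside minus PAC-CM, were below 0 for 5 of the 6 members with a median of -0.07, beside 51.1% and a median of -0.0056 over all tested genes.

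Irgm1, a regulator found on Golgi, lysosomal and mitochondrial membranes and needed for resistance to many intracellular pathogens, was at 534, 550 and 594 CPM in PAC-CM replicates 1 to 3. With kinsenoside it was at 511, 608 and 598 CPM, so the lowest and the highest value of the 6 both came from kinsenoside libraries and the groups overlapped. The means were 559 ± 31.2 and 572 ± 53.6 CPM (SD, n = 3 each). The fitted log2 fold change was 0.08 (SE 0.0828, edgeR adjusted p = 0.714), and its 95% interval ran from 0.926-fold to 1.20-fold. It was 0.15 without kinsenoside replicate 1, which held the lowest value (adjusted p = 0.316), and 0.04 without kinsenoside replicate 2. It was also 0.04 without kinsenoside replicate 3 and 0.05 without PAC-CM replicate 1.

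Irgm2, a regulator of the Golgi apparatus, was at 254, 240 and 266 CPM in PAC-CM and at 229, 240 and 251 CPM in the kinsenoside group. The groups overlapped, and the difference between the means was similar in size to the SD within a group. The means were 253 ± 13.2 and 240.2 ± 11.2 CPM (SD, n = 3 each), with a log2 fold change of -0.03 (SE 0.0672, edgeR adjusted p = 0.875) and an interval of 0.879-fold to 1.09-fold.

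Igtp, also called Irgm3, the regulator of the endoplasmic reticulum and of lipid droplets, was at 261, 267 and 292 CPM in PAC-CM and at 254, 274 and 259 CPM in the kinsenoside group. PAC-CM replicate 3 was above all others, and the other 5 values overlapped. The means were 273 ± 16.2 and 263 ± 10.0 CPM (SD, n = 3 each), with a log2 fold change of -0.01 (SE 0.0663, edgeR adjusted p = 0.954) and an interval of 0.892-fold to 1.10-fold.

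Among the effectors, Iigp1, also called Irga6, which coats the Toxoplasma vacuole, was at 146, 148 and 157 CPM in PAC-CM. With kinsenoside it was at 144, 119 and 140 CPM. All 3 kinsenoside values were below all PAC-CM values, by a narrow margin, and kinsenoside replicate 2 was the lowest. The means were 149.9 ± 5.87 and 134 ± 13.4 CPM (SD, n = 3 each), with a log2 fold change of -0.12 (SE 0.0849, edgeR adjusted p = 0.577) and an interval of 0.807-fold to 1.06-fold. It was -0.17 without kinsenoside replicate 1 (adjusted p = 0.375) and -0.03 without kinsenoside replicate 2 (adjusted p = 0.899).

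Tgtp1 and Tgtp2 encode the effector called Irgb6, which binds phospholipids of the vacuole membrane. Tgtp2 was at 729, 732 and 779 CPM in PAC-CM and at 610.1, 658 and 697 CPM in the kinsenoside group. Each kinsenoside value was below each PAC-CM value, with means of 747 ± 28.0 and 655 ± 43.4 CPM (SD, n = 3 each). The log2 fold change was -0.14 (SE 0.0698) and missed the threshold (edgeR adjusted p = 0.378, the smallest of any member), with an interval of 0.810-fold to 1.01-fold. Without kinsenoside replicate 1 it was -0.10 (adjusted p = 0.523).

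Tgtp1 was at 222, 213 and 229 CPM in PAC-CM and at 179.7, 195 and 209 CPM in the kinsenoside group, again without overlap. The means were 221 ± 7.85 and 195 ± 14.8 CPM (SD, n = 3 each), with a log2 fold change of -0.14 (SE 0.0730, edgeR adjusted p = 0.418) and an interval of 0.809-fold to 1.02-fold. Without kinsenoside replicate 1 it was -0.08 (adjusted p = 0.589).

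Counted as a single gene, Tgtp1 and Tgtp2 gave 950, 945 and 1008 CPM in PAC-CM and 790, 854 and 906 CPM in the kinsenoside group. The sum had a log2 fold change of -0.14 (SE 0.0701, edgeR adjusted p = 0.384) and was not called either. Without kinsenoside replicate 1 the log2 fold change was -0.09 (adjusted p = 0.531). This sum does not depend on how reads were split between the copies. It may still depend on whether reads that match several genes were counted, which is not given. Tgtp2 had 3.29 to 3.43 times the counts of Tgtp1 in all 6 libraries, and their log2 ratio differed by -0.0044 between the groups (exact permutation test, two-sided, p = 0.9).

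**Figure D1:**
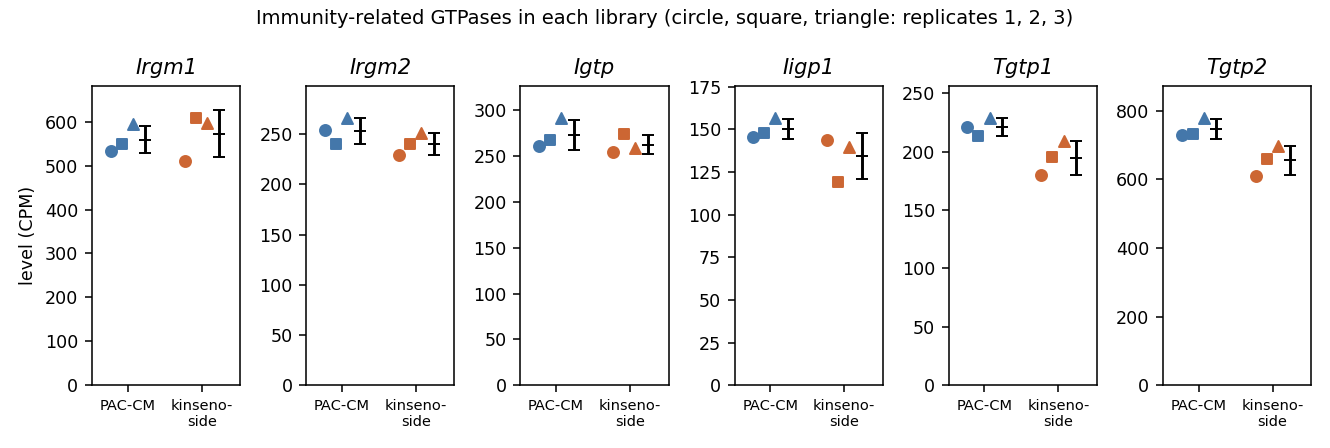
Level of each member in CPM, on an axis from 0, in the 3 PAC-CM (blue) and 3 kinsenoside (orange) libraries, with the mean and SD as bars beside the points. The regulators Irgm1, Irgm2 and Igtp overlapped between the groups, while the kinsenoside values of Iigp1, Tgtp1 and Tgtp2 lay below the PAC-CM values in plain CPM (after TMM scaling, those of Tgtp2 only).

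A count of genes whose groups do not overlap depends on the scaling. In plain CPM, 3 of the 6 members (Iigp1, Tgtp1 and Tgtp2) had all kinsenoside libraries below all PAC-CM libraries, and so did 15.7% of all tested genes. After scaling by edgeR's TMM factors, which were 1.013 to 1.019 in PAC-CM and 0.979 to 0.990 with kinsenoside, only Tgtp2 (1 of 6) had this order, beside 11.4% of all tested genes.

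A ratio within a library needs no scaling. The 3 effectors together had 1.05, 1.03 and 1.01 times the counts of the 3 regulators in PAC-CM, and 0.939, 0.866 and 0.943 times with kinsenoside. In counts the effectors thus slightly exceeded the regulators in every PAC-CM library and in no kinsenoside library. Counts are not divided by gene length, so they show the shift between the groups and not which type was more abundant. The mean log2 ratio was 0.04 ± 0.02 in PAC-CM and -0.13 ± 0.07 with kinsenoside (SD, n = 3 each), a difference of -0.17 (0.889-fold). The exact two-sided permutation test gave p = 0.1, the smallest value that 3 against 3 libraries allow, so this test could not pass 0.05 with these libraries.

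The same ratio was taken for parts of the effector group. The summed counts of Tgtp1 and Tgtp2 against the regulators had log2 ratios of -0.14, -0.16 and -0.19 in PAC-CM and -0.33, -0.40 and -0.29 with kinsenoside, without overlap (difference -0.17, exact permutation p = 0.1). For Iigp1 alone against the regulators the difference was -0.15, but the groups overlapped (exact permutation p = 0.4), with kinsenoside replicate 2 the lowest of the 6 libraries. Leaving out each library in turn kept the difference of the effector to regulator ratio between -0.13 and -0.19.

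**Figure D2:**
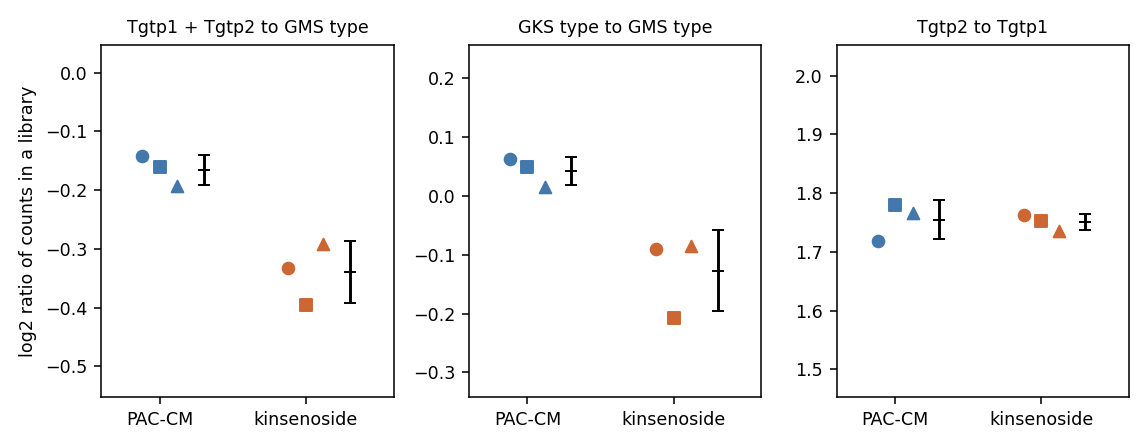
Log2 ratios of counts within each library for Tgtp1 plus Tgtp2 against the GMS-type regulators, for all GKS-type effectors against the regulators, and for Tgtp2 against Tgtp1, with the mean and SD as bars (circle, square and triangle are replicates 1, 2 and 3). The first pair of ratios was lower in the 3 kinsenoside libraries, and the ratio of the Tgtp copies overlapped between groups; each panel spans the same height and does not start at 0.

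Per kilobase of annotated exon (RPKM), which allows levels of different genes to be compared, Tgtp2 was the most abundant member in PAC-CM at 254 ± 9.52 (SD, n = 3). Igtp followed at 135 ± 8.02, Irgm1 at 96.2 ± 5.36, Tgtp1 at 69.0 ± 2.45, Irgm2 at 68.7 ± 3.57 and Iigp1 at 25.7 ± 1.01 RPKM. Tgtp1 and Irgm2 were neighbours whose libraries overlapped, and all other neighbours were separated by more than their spread. With kinsenoside the order was Tgtp2 at 223 ± 14.8, Igtp at 129.9 ± 4.97, Irgm1 at 98.5 ± 9.23, Irgm2 at 65.1 ± 3.03, Tgtp1 at 60.8 ± 4.60 and Iigp1 at 23.0 ± 2.30 RPKM, again with Irgm2 and Tgtp1 overlapping. The levels and places of Tgtp1 and Tgtp2 rest on how reads of the sequence they share were counted, which is not given. The level and place of Irgm1, the level of Iigp1 and the nearness of Tgtp1 to Irgm2 rest on the length used. Per kilobase of its longest coding transcript Irgm1 was at 247 ± 13.8 RPKM in PAC-CM, next to Tgtp2 at 266 ± 9.95. Iigp1 was then at 48.0 ± 1.88 RPKM, still the lowest of the 6. Tgtp1 at 78.4 ± 2.78 and Irgm2 at 71.8 ± 3.73 RPKM in PAC-CM were then further apart than either SD. In the kinsenoside group these genes were at 69.0 ± 5.23 and 68.1 ± 3.17 RPKM. With kinsenoside, on that length, Irgm1 at 253 ± 23.7 RPKM and Tgtp2 at 233 ± 15.4 differed by less than the SD of Irgm1.

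Among the 13901 tested genes, Tgtp2 ranked 208 by counts and Irgm1 268, with Igtp at 580, Irgm2 at 634, Tgtp1 at 759 and Iigp1 at 1129. Together the members took 0.214%, 0.215% and 0.232% of all counts in PAC-CM, and 0.193%, 0.210% and 0.215% with kinsenoside, so the groups overlapped. In bulk RNA, fewer expressing cells and less RNA per cell cannot be told apart.

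The members moved between libraries in a partly shared way. PAC-CM replicate 3 was the highest of its group for all 6 members, and kinsenoside replicate 1 was the lowest of its group for 5 of the 6. Iigp1 was the exception, lowest in kinsenoside replicate 2. The average of the 6 centred log2 profiles was -0.01, -0.0031 and 0.10 over the PAC-CM libraries, and over the kinsenoside libraries it was -0.10, -0.04 and 0.04. Irgm2 lay closest to this average (root mean square difference 0.027) and Irgm1 (0.0895) and Iigp1 (0.103) farthest, with Tgtp2 at 0.0462, Tgtp1 at 0.051 and Igtp at 0.0514.

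**Figure D3:**
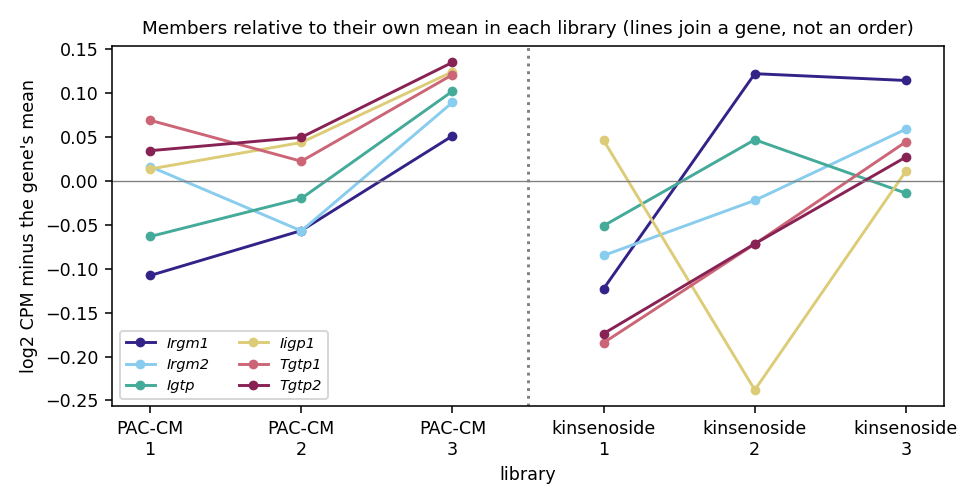
Log2 CPM (TMM-scaled, prior count 2) of each member minus its own mean over the 6 libraries; lines join the points of a gene and show no order of replicates. Tgtp1 and Tgtp2 ran together, Iigp1 dipped in kinsenoside replicate 2, and Irgm1 was high in kinsenoside replicates 2 and 3.

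Of 8769 genes outside the family with a symbol and at least 5 CPM, the 8 whose profile over the 6 libraries was nearest to the family average were Myo7a (root mean square difference 0.0095), Dock2 (0.0124), Rfwd2 (0.0126), Micu2 (0.0184), Tuba1b (0.0189), Phax (0.0199), Tpr (0.0202) and Arel1 (0.0203). The median over these candidates was 0.134. With 6 libraries and small differences, this likeness is a description only.

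None of the other rows of the family was called. Of 22 symbols listed, 11 were in the table, 10 were tested and 0 passed in edgeR, DESeq2 or limma-voom. An unadjusted edgeR p under 0.05 was seen for 2 rows (14.9% of all tested genes), 1 lower and 1 higher. Estimates were below 0 for 8 rows, with a median of -0.08. Gm12250, the gene known as Irgb10, an effector that acts on bacterial membranes, had 109.9 ± 4.68 CPM in PAC-CM and 99.2 ± 0.587 CPM in the kinsenoside group (SD, n = 3 each). All its kinsenoside values were lower, but the log2 fold change of -0.10 was not called (edgeR adjusted p = 0.477). The rows 9930111J21Rik1 and 9930111J21Rik2 had log2 fold changes of -0.13 and -0.06 (adjusted p = 0.548 and 0.795), Gm12185 -0.19 (0.590), Gm4951 -0.03 (0.944), Irgq -0.0024 (0.996) and F830016B08Rik 0.43 (0.318). Without kinsenoside replicate 1 the estimate was -0.07 for 9930111J21Rik1, 0.01 for 9930111J21Rik2, -0.07 for Gm12185, -0.14 for Gm4951 and -0.10 for Irgq.

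Gm5431 had the largest SE of the other family rows with at least 1 CPM. It was at 155, 166 and 86.0 CPM in PAC-CM and at 71.9, 162 and 80.0 CPM in the kinsenoside group. The libraries took either of 2 levels that did not follow the groups, and the log2 fold change was -0.33 with an SE of 0.433 (edgeR adjusted p = 0.790), running from -0.79 to -0.12 as each library was left out. Gm4841, below the level set for naming and picked out after its values were seen, had 40, 62 and 47 counts in PAC-CM and 24, 17 and 14 with kinsenoside. Its groups did not overlap, and its log2 fold change of -1.30 (SE 0.311) missed the threshold (edgeR adjusted p = 0.120).

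**Figure D4:**
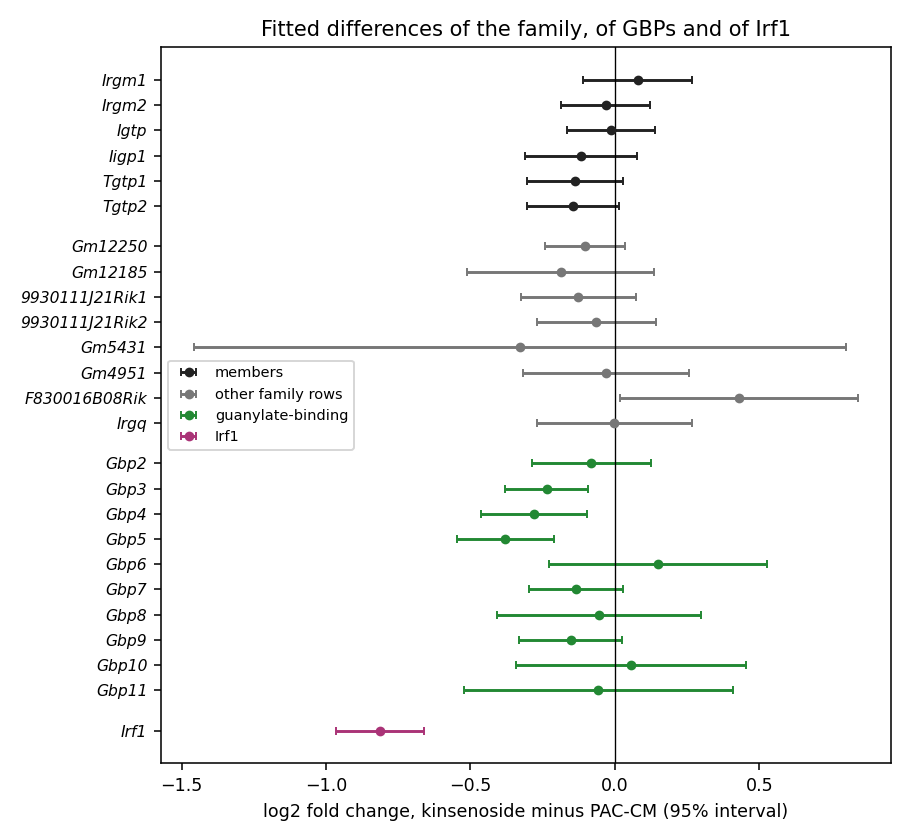
Log2 fold change, kinsenoside minus PAC-CM, with its 95% interval, for the 6 members, the other family rows with a mean of at least 1 CPM, the 10 tested guanylate-binding proteins and Irf1. The intervals of all 6 members include 0, and the interval of Irf1 lies wholly below them.

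Upstream of the family, interferon-γ itself (Ifng) was at 0 in all 6 libraries, as were Ifna2, Ifna4, Ifnl2 and Ifnl3. Interferon-β (Ifnb1) was low, at 0.842 ± 0.333 CPM in PAC-CM and 0.371 ± 0.0484 CPM in the kinsenoside group (SD, n = 3 each; log2 fold change -1.13, edgeR adjusted p = 0.236). Its groups did not overlap, and its unadjusted p was under 0.05. Of 8 genes of the interferon-γ receptor and JAK-STAT pathway, 0 were called and 6 had estimates below 0, with a median of -0.14. At an unadjusted p under 0.05 edgeR had 4 of them (14.9% of all tested genes), 3 lower and 1 higher. DESeq2 called 3 (Jak2, Socs1 and Socs3), beside 441 genes over the whole table, and limma-voom 0. Socs3, a feedback inhibitor of JAK kinases, was at 719 ± 95.1 and 472 ± 94.0 CPM (log2 fold change -0.56, edgeR adjusted p = 0.185). Without kinsenoside replicate 1 Socs3 passed the threshold (-0.74, edgeR adjusted p = 0.0405). Leaving out any other library gave adjusted p-values of 0.189 to 0.428.

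Of 5 genes of the type I interferon receptor and its STAT complex, 0 were called by edgeR, with 1 at an unadjusted p under 0.05 (14.9% of all tested genes), and 4 had estimates below 0 (median -0.11). DESeq2 called 1 of them (Tyk2), beside 441 genes over the whole table, and limma-voom 0. Stat2 had a log2 fold change of 0.03 (edgeR adjusted p = 0.848) and the receptor chain Ifnar1 one of -0.04 (0.822), or -0.03 without kinsenoside replicate 1. Among 7 interferon-driven transcription factors, 1 was called by edgeR (0.511% of all tested genes), DESeq2 (441 over the whole table) and limma-voom alike. At an unadjusted p under 0.05 edgeR had 2 of them (14.9% of all tested genes), each lower. Estimates were below 0 for 4 of the factors, with a median of -0.03. Irf1, which binds the response element of many interferon-γ targets, fell from 153 ± 8.30 CPM to 84.3 ± 2.75 CPM (SD, n = 3 each), a log2 fold change of -0.81 (SE 0.0672, edgeR adjusted p = 0.00248). Irf1 was called under all 15 alternatives, at adjusted p-values up to 0.0242. The 95% interval of Irf1, from -0.97 to -0.66, lay below those of all 6 members, of which the lowest bound was -0.31 for Iigp1, as the plot of fitted differences shows.

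Guanylate-binding proteins, the partner family of larger GTPases that act on the same vacuoles, had 0 called of 10 tested in edgeR, 8 estimates below 0 and a median of -0.11. At an unadjusted p under 0.05 edgeR had 3 of them (14.9% of all tested genes), all lower. DESeq2 called 2 (Gbp3 and Gbp5), beside 441 genes over the whole table, and limma-voom 0. Gbp2 had 2093 ± 149.8 CPM in PAC-CM and 1918 ± 199.6 CPM in the kinsenoside group (log2 fold change -0.08, edgeR adjusted p = 0.732, and 0.0031 without kinsenoside replicate 1). Gbp5, which also promotes inflammasome activity, was at 750.4 ± 43.8 and 559 ± 35.8 CPM, with a log2 fold change of -0.38 (adjusted p = 0.0762). Their summed level was 4356 to 4952 CPM in PAC-CM and 3841 to 4292 CPM in the kinsenoside group, without overlap in plain CPM. After TMM scaling it was 4301 to 4878 and 3899 to 4384, and the groups overlapped.

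The effectors are directed to vacuoles by a part of the autophagy machinery. Genes of the Atg8 conjugation system, which mark membranes for the effectors, had 0 called of 11 tested in edgeR, 3 estimates below 0 and a median of 0.11. At an unadjusted p under 0.05 edgeR had 4 of them (14.9% of all tested genes), all higher. DESeq2 called 1 (Atg12), beside 441 genes over the whole table, and limma-voom 0. Gabarap, an Atg8 protein, had 439.9 ± 3.89 CPM in PAC-CM and 484 ± 11.3 CPM in the kinsenoside group (log2 fold change 0.18, edgeR adjusted p = 0.192), and Gabarapl1 had one of -0.14 (0.913). Gabarapl1 was at 122, 109 and 113 CPM in PAC-CM and at 49.2, 133 and 121 CPM in the kinsenoside group, so the sign came from kinsenoside replicate 1. Without that library it was 0.19 (adjusted p = 0.271). Of 8 ubiquitin ligases and adaptors that act at the vacuole, 0 were called by edgeR, DESeq2 or limma-voom. An unadjusted edgeR p under 0.05 was seen for 2 (14.9% of all tested genes), each higher, and 2 had estimates below 0 (median 0.08). The ligase Rnf213 was at 1999 ± 55.9 and 1963 ± 140.9 CPM (log2 fold change 0.02, adjusted p = 0.939, and 0.07 without kinsenoside replicate 1). The adaptor Sqstm1 was at 1154 ± 24.7 and 1277 ± 55.9 CPM (0.19, adjusted p = 0.195).

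Of other interferon-γ targets, 1 of 18 tested was called by edgeR (0.511% of all tested genes), with 11 estimates below 0 and a median of -0.06. At an unadjusted p under 0.05 edgeR had 6 of them (14.9% of all tested genes), 4 lower and 2 higher. DESeq2 called 3 (Cxcl10, Nos2 and Socs1), beside 441 genes over the whole table, and limma-voom 1. Cxcl10, a chemokine for T cells, fell from 557 ± 48.2 to 284.9 ± 24.5 CPM (SD, n = 3 each; log2 fold change -0.92, SE 0.0867, edgeR adjusted p = 0.00482) and was called under all 15 alternatives. Nos2, the inducible nitric oxide synthase, was at 1936 ± 278.4 and 1247 ± 78.2 CPM (log2 fold change -0.59, edgeR adjusted p = 0.0640). Without PAC-CM replicate 3 Nos2 passed the threshold (-0.69, edgeR adjusted p = 0.0451). Leaving out any other library gave adjusted p-values of 0.0711 to 0.230. Among 22 antiviral interferon-stimulated genes, edgeR called 2 lower (0.302% of all tested genes), DESeq2 2 (441 over the whole table) and limma-voom 1. At an unadjusted p under 0.05 edgeR had 8 of them (14.9% of all tested genes), 5 lower and 3 higher. Estimates were below 0 for 14 genes, with a median of -0.06. Cmpk2, a mitochondrial nucleotide kinase, had 2016 ± 70.7 CPM in PAC-CM and fell to 1393 ± 10.7 CPM, a log2 difference of -0.49 (edgeR adjusted p = 0.0152). Rsad2, the antiviral enzyme viperin, had 4097 ± 178.6 CPM and fell to 2978 ± 165.9 CPM, a log2 difference of -0.42 (edgeR adjusted p = 0.0473). The Cmpk2 call was lost in 4 of the 15 alternatives (without each PAC-CM replicate and without kinsenoside replicate 2), at adjusted p-values up to 0.0976. The Rsad2 call was lost in 11, among them those without any single one of the 6 libraries, at adjusted p-values up to 0.171.

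Over 15 alternatives of tool, scaling, filter, design or left-out library, none of the 90 member values had an adjusted p under 0.05 (0.238 to 0.996), and 86 kept the sign of the fit to all libraries. The exceptions were Irgm2 and Igtp, whose near-zero estimates turned above 0 without PAC-CM replicate 3 (0.0089 and 0.0399) and without kinsenoside replicate 1 (0.0011 and 0.0085). The number of members below 0 was then 3 of 6, with a median of -0.04 in each case.

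**Figure D5:**
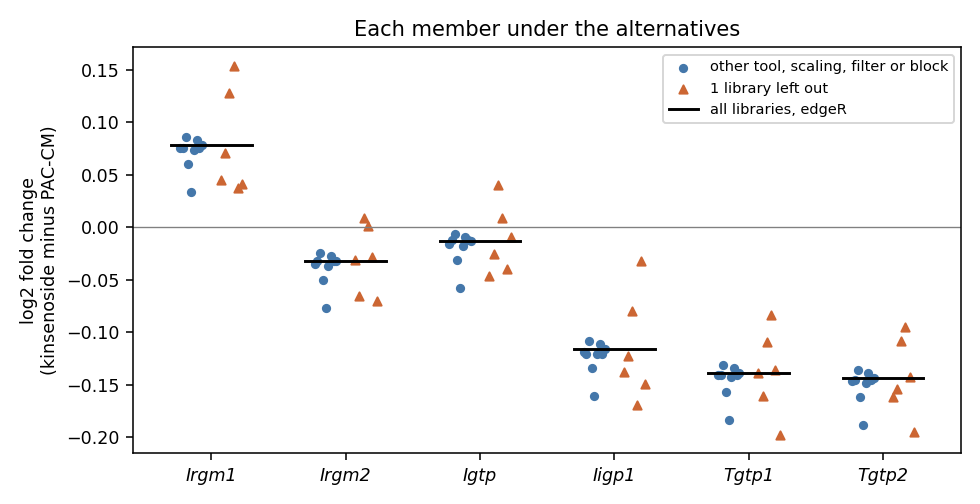
Log2 fold change of each member with all libraries in edgeR (line), under other tools, scalings, filters or the replicate block (circles), and with 1 library left out (triangles). Iigp1, Tgtp1 and Tgtp2 stayed below 0 and Irgm1 above 0 under all 15 alternatives, while Irgm2 and Igtp crossed 0.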

How the data were processed

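RNA of 6 macrophage samples was read as 150-base pairs. The authors deposited whole-number counts per gene, 1 column per library. Tools named in the submitters' processing notes, without a role, were STAR, StringTie 1.3.1c and DESeq2 1.16.1, with the build GRCm38. The counting tool and its use of strand are not given in the sources used here.

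Counts were tested with edgeR 4.0.16 (R 4.3.3): filterByExpr, TMM, robust quasi-likelihood fit on group, two-sided, Benjamini-Hochberg over 13901 genes, threshold 0.05. CPM are counts per 1000000 counts of the library, and RPKM divide by the GENCODE M21 exon union, which matched 55154 of 55335 identifiers. Ratios were compared by exact permutation. The script was tested on simulated data. Alternatives used DESeq2 1.42.0, limma 3.58.1 (voom), other scalings and filters, a replicate block and left-out libraries. RPKM by longest transcript, TMM-scaled overlap and left-out libraries for listed genes were added after the data had been seen.

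The members and gene lists were chosen with earlier results of these data known. All members, family rows of at least 1 CPM, and called or otherwise the 2 most abundant genes of each list are named; genes called only by DESeq2 were named after their values were seen. Of the lists' named genes, 1 is not reported here.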

Additional observations from a re-analysis of the deposited data

How the results depend on the processing

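Across all genes, 71 were called with edgeR, 441 with DESeq2, 39 with limma-voom, 36 with non-robust estimates and 42 with the replicate number as a block, and leaving out each library gave 13 to 98. The counts of called members stayed at 0 throughout, the summed Tgtp row kept its direction and side of the threshold, and the effector to regulator ratio kept its direction. Under the replicate block the Tgtp sum had a log2 fold change of -0.14 (edgeR adjusted p = 0.296), and the ratio gave an exact paired p of 0.25, the smallest that 3 pairs allow. Whether the replicate numbers pair the libraries is not stated. Deviations of same-numbered libraries correlated at 0.0087, -0.10 and 0.13, and those of differently numbered libraries at -0.17 to 0.16. With so few libraries these correlations cannot settle whether there was a pairing.

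The signs of Irgm2 and Igtp turned without PAC-CM replicate 3 (0.0089 and 0.0399) and without kinsenoside replicate 1 (0.0011 and 0.0085); leaving out each library gave -0.0705 to 0.0089 for Irgm2 and -0.0465 to 0.0399 for Igtp. The cause was not tested. At an unadjusted p under 0.05, 2 members passed with total count scaling and without kinsenoside replicate 3, and 1 with upper quartile scaling and with the replicate block, each at edgeR adjusted p-values of at least 0.238. Each member had at least 5015 counts in every library, and the effect of depth on these comparisons was not tested.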
